A study of Mus musculus with 58 samples.

Results

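Lithium and fluoxetine were compared directly with each other in prefrontal cortex of wild-type (WT) mice, as 8 lithium libraries against 10 fluoxetine libraries, with no vehicle library in the test. These 18 libraries were all those of the series, of 58, that the labels give as WT with either drug, and each was made from bulk RNA of C57BL/6J cortex at postnatal day 25. The lithium group held 4 females and 4 males, and the fluoxetine group 5 of each sex. Pups had the drug from postnatal day 3 to 24, for 3 weeks, in the milk of the dam, and dose was not given in the sources used here. The other libraries came from vehicle-treated WT mice and from mice labelled heterozygous for Kmt5b (HT), a histone H4 lysine methyltransferase gene, with vehicle or either drug, 10 libraries each. HT lithium and HT fluoxetine served here as a repeat of the same drug contrast in other libraries. WT vehicle served as a level printed beside the drug values, and was otherwise used only in an alternative fit on all 58 libraries and in centring list levels. No litter was given in the labels, littermates share a drug that comes with the milk, and p values measure only the spread between these libraries.

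Lithium is a mood stabiliser that inhibits glycogen synthase kinase 3 and the phosphatases that recycle inositol. Fluoxetine is an antidepressant that blocks the serotonin transporter, and it builds up in brain and binds to many membranes. Immediate early genes are transcribed within minutes of synaptic activity or growth factor signalling. Their products include transcription factors of the Fos, Jun, Egr, Nr4a and Klf families, phosphatases and Sprouty proteins that switch off MAP kinase signalling, and Arc, which moves glutamate receptors away from synapses.

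Values are normalised counts, that is reads per gene scaled by 1 factor for each library, and tests ran on log2(normalised count + 1) with limma. A difference is lithium minus fluoxetine, averaged over the sexes, and a gene passed at a Benjamini-Hochberg adjusted p under 0.05. A gene said to rise or fall was higher or lower with lithium than with fluoxetine, whatever its vehicle level. Recovered reads per library were 24.2 to 38.6 M with lithium and 23.9 to 30.1 M with fluoxetine. WT lithium females 3 and 4 were the deepest, above 35 M. WT lithium female 1 stood apart in another way, with the lowest lithium level of immediate early genes and of cholesterol enzymes. Both facts bear on the counts, so that counts without these libraries are given beside the results. Kmt5b, read to check the genotype labels, stood at 1592 ± 132 (SD, n = 8) in WT lithium and 1742 ± 124 (SD, n = 10) in WT fluoxetine, against 1744 ± 73.8 and 1749.5 ± 128 (SD, n = 10 each) in HT. Means of libraries labelled HT were thus not lower, and HT here stands for that label.

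Of 16655 genes with a mean of at least 10, 228 differed between the drugs in WT cortex (1.37%), and 148 of them were higher with lithium (0.889%) and 80 lower (0.480%). The other 1433 genes of the table were not tested. Differences were mostly small. The median was 0.37 on the log2 scale among the higher genes (range 0.14 to 1.39) and -0.35 among the lower ones (range -1.04 to -0.16), beside -0.01 over all genes tested. More than 1.5-fold apart were 20 higher and 15 lower genes. The sign was the same in females and males for 227 of the 228, the exception being Itga4, an integrin chain (females -0.52, males 0.02). Lithium and fluoxetine libraries did not overlap at all in 23 genes that were higher (0.138% of genes tested) and 13 that were lower (0.0781%).

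Predicted genes, Riken clones and pseudogenes made up 23 of the 80 lower genes (28.8%) and 1 of the 148 higher genes (0.676%), against 14.3% of all genes tested. They are counted here and not named. WT vehicle means lay nearer to the lithium than to the fluoxetine mean in 99 of the 148 higher genes (66.9%) and in 48 of the 80 lower genes (60%), against 56.6% of all genes tested. Vehicle levels entered neither the choice of these genes nor the test that they passed, but vehicle libraries were in the alternative fit on all 58 libraries.

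The count of 228 was moved most by WT lithium female 1, without which 1706 genes passed (938 higher and 768 lower), all 228 among them. Without WT lithium female 3 it was 102, and without WT lithium female 4 it was 106. With both of these deep libraries left out, which left 6 lithium libraries, 41 genes passed (33 higher and 8 lower), all of them among the 228. Leaving out 1 of WT lithium males 1 to 4 gave 136, 142, 124 and 114, and leaving out WT fluoxetine female 1, female 4, male 4 or male 5 gave 129, 127, 140 and 124. Without any 1 of the other 7 libraries the count was 164 to 291.

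**Figure D1:**
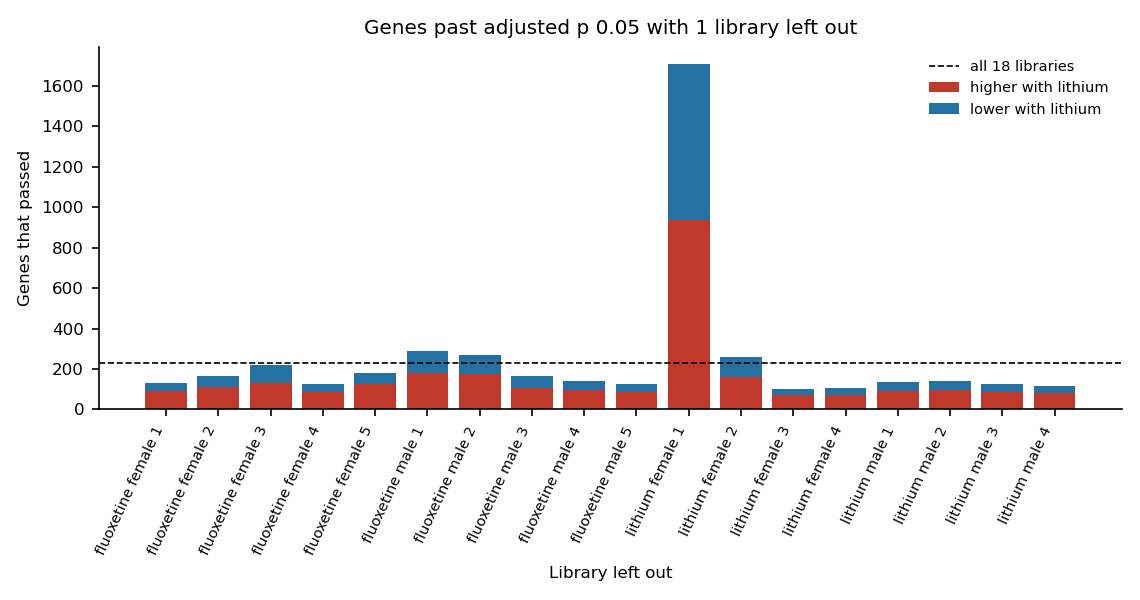
Number of genes past an adjusted p of 0.05 (y axis) when the library on the x axis was left out, split into genes higher (red) and lower (blue) with lithium; the dashed line marks the 228 genes of all 18 libraries. The bar without WT lithium female 1 reaches 1706, and the others lie between 102 and 291.

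Stk40, which encodes a pseudokinase (ENSMUSG00000042608, chromosome 4 from 126103957 to 126141029), had the smallest p. Its normalised count had a lowest, median and highest value of 1149.8, 1220 and 1471 in the 8 lithium libraries and 865, 915 and 989.9 in the 10 fluoxetine libraries. All lithium libraries lay above all fluoxetine libraries, and lithium exceeded fluoxetine by 0.44 log2 units (SE 0.0434, limma adjusted p = 4.95e-05), a fold of 1.36. WT vehicle stood at 1248 ± 102 (SD, n = 10), beside 1258 ± 101 with lithium (SD, n = 8) and 925 ± 42.8 with fluoxetine (SD, n = 10). Ppp2r1b, a scaffold subunit of protein phosphatase 2A, had values of 403, 435 and 465.8 with lithium and 273, 315 and 357 with fluoxetine. Here too the groups did not overlap (0.48, SE 0.0543, adjusted p = 0.000167), but the WT vehicle mean of 348 lay on the fluoxetine side. Spry4, a Sprouty inhibitor of growth factor signalling through MAP kinase, had 365, 514 and 555 with lithium and 250.1, 294 and 379.5 with fluoxetine (0.73, SE 0.0877, adjusted p = 0.000279). The groups of Spry4 met in 1 library only, WT lithium female 1 at 365, under the highest fluoxetine value.

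The other genes with the smallest p among the higher ones came from several signalling systems. Efnb1, the ephrin-B1 ligand of Eph receptors, was 0.45 higher with lithium than with fluoxetine. Ackr3, an atypical receptor that takes up the chemokine CXCL12, was 0.49 higher, and Rasl11a, a small GTPase of the Ras family, 0.92. Means with lithium, fluoxetine and vehicle were 548, 401 and 516 for Efnb1, 462, 328 and 440 for Ackr3, and 138, 71.0 and 108 for Rasl11a. Dnajb5, a co-chaperone of Hsp70, stood 0.43 higher and was the 1 member of 25 cytosolic heat shock genes that passed (4%, against 0.889% of all genes higher). Ccnd2, cyclin D2, had 2830.3, 3336 and 4064 with lithium and 2217, 2539 and 2715 with fluoxetine, with no overlap (0.43, SE 0.0605, adjusted p = 0.000805). Adjusted p by limma lay at 0.000412 for Efnb1, Dnajb5 and Ackr3 and at 0.000805 for Rasl11a. By size rather than p, and chosen after their values were seen, Tmem252 (1.04), the odorant receptor gene Olfr558 (0.92) and Rasd1 (0.87), a dexamethasone-induced Ras protein, also stood high.

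Immediate early genes were the group in which most members were higher with lithium than with fluoxetine. Of 38 members tested 21 rose (55.3%, against 0.889% of all genes), 0 fell and 17 did not pass. The median difference was 0.49 against -0.01 over all genes, and 37 of 38 members had a positive difference, all but Nr4a2 (-0.05). In 3 members the groups did not overlap (Ier5l, Klf10 and Nab2), as in 0.138% of all genes tested with lithium the higher. Averaged over the 38 members, on a log2 level centred over all 58 libraries, lithium libraries lay at -0.05 to 0.26 (median 0.12), fluoxetine libraries at -0.66 to -0.06 (median -0.37) and vehicle libraries at 0.04 to 0.47 (median 0.19). All lithium libraries thus lay above all fluoxetine libraries, narrowly so for WT lithium female 1, the lowest. The vehicle mean was nearer to the lithium than to the fluoxetine mean in 33 of the 38 members, and in 20 of the 21 that rose.

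Arc (ENSMUSG00000022602, chromosome 15 from 74669083 to 74672570), the synaptic effector of the group, had the largest difference of all genes that passed. Its normalised count was 3066, 5109 and 6472 (lowest, median, highest) with lithium, 1145, 1883 and 3307 with fluoxetine and 4518, 5623 and 7290.3 with vehicle. Lithium and fluoxetine overlapped only where the lowest lithium library lay below the highest fluoxetine library, and the difference was 1.39 (SE 0.196, limma adjusted p = 0.000805), a fold of 2.63. Females (1.37) and males (1.42) gave like values. Ier5l, a nuclear relative of the immediate early response gene Ier5 (ENSMUSG00000089762, chromosome 2 from 30471537 to 30474219), had 344, 393 and 477 with lithium and 171, 244 and 265 with fluoxetine, with all lithium libraries above all fluoxetine libraries (0.79, SE 0.0821, adjusted p = 6.26e-05). Ier5 itself rose by 0.55 (adjusted p = 0.000394), from 1301, 1522 and 1890.4 with fluoxetine to 1806, 2214 and 2556 with lithium. The WT vehicle mean was 456 for Ier5l, above the lithium mean of 401, and 2108 for Ier5, below the lithium mean of 2222.

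Other members that rose, named after their values were seen, came from each of the roles above. Transcription factors among them were Egr2 (1.14), Nr4a1 (0.68), Nr4a3 (0.65), Junb (0.61), Klf10 (0.58), Fosl2 (0.46) and Klf4 (0.37), together with Nab2 (0.47), which binds and restrains Egr proteins. Phosphatases of MAP kinases were Dusp1 (0.80) and Dusp6 (0.58), and Gadd45b (0.69) is a stress sensor that acts on the kinases upstream. Sik1 (0.55) is a kinase that feeds back on cyclic AMP signalling. Adjusted p by limma ran from 6.26e-05 (Ier5l) to 0.0487 (Ier2) over the 21. Fos itself, the archetype of the family, had means of 862 with lithium, 543 with fluoxetine and 1157 with vehicle and did not pass (0.77, SE 0.212, adjusted p = 0.0801). Npas4 (0.14), a neuron-specific factor induced by calcium, Homer1 (0.10), Egr3 (0.23) and Bdnf (0.29) did not pass either.

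**Figure D2:**
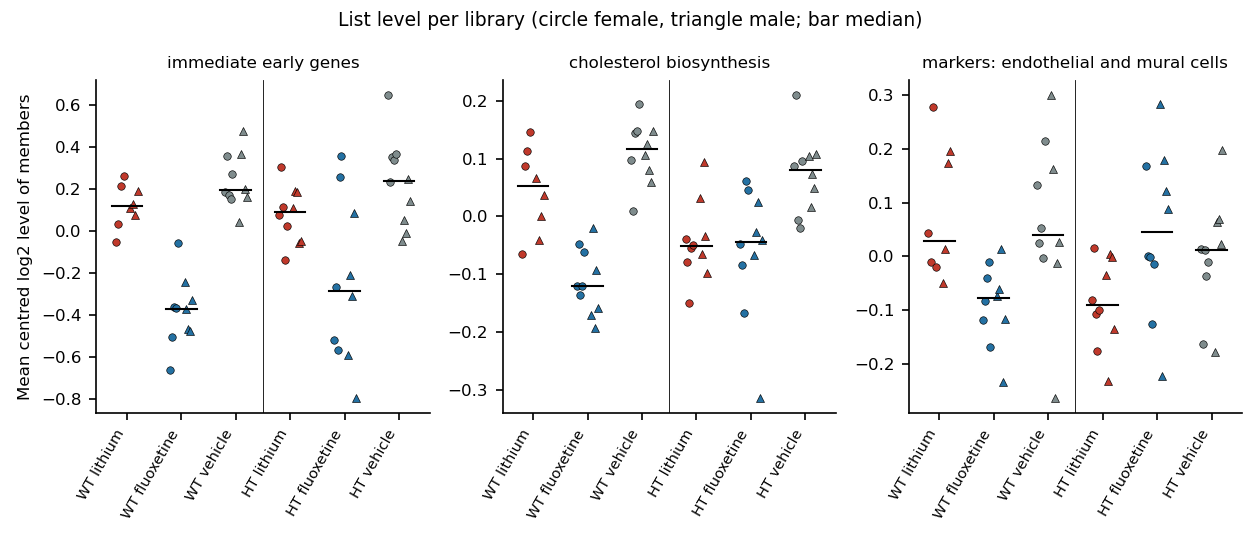
Mean centred log2 level of the members of 3 gene lists in each library (y axis) by genotype label and treatment (x axis); circles are females, triangles males, bars medians. WT fluoxetine libraries lie lowest for immediate early genes (median -0.37 against 0.12 with lithium) and cholesterol enzymes, while HT fluoxetine libraries spread from -0.80 to 0.36 for immediate early genes.

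The count of 21 was 27 without WT lithium female 1 and 9 without WT lithium females 3 and 4. It was 20 by edgeR's quasi-likelihood test on the recovered reads, 7 with the endothelial and mural marker level of each library as a covariate and 13 with the astrocyte level. Both marker levels were higher with lithium, as given below.

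Dusp1 and Arl4d, both among the 21, hold a whole cyclic AMP response element just upstream of their start. The element (letters TGACGTCA, the same on both strands) binds the activity-regulated factor CREB, and the promoters are shown because these members moved together and differ from most of the list in holding it. Each line gives the 250 bases before the RefSeq gene start (build GRCm38.p6), 5′ to 3′ on the gene's strand, with the element in capitals.
Dusp1 (chr17:26508473-26508722, minus strand): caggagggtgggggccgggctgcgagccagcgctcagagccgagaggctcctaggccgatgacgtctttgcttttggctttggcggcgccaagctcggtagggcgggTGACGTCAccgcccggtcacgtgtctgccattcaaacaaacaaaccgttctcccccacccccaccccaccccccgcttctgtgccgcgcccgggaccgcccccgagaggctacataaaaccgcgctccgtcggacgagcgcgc
Arl4d (chr11:101665291-101665540, plus strand): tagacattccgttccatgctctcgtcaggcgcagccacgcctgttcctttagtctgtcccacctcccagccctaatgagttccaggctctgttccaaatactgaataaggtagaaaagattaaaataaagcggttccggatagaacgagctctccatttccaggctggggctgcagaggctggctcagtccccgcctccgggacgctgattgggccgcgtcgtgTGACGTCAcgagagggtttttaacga
The element begins 143 bases before the start of Dusp1 and 26 bases before that of Arl4d, a small GTPase of the ADP ribosylation factor family. Dusp1 had normalised counts of 599, 833 and 942 with lithium and 328, 474 and 651 with fluoxetine, so that the groups overlapped (0.80, SE 0.127, adjusted p = 0.00223). Arl4d had means of 516 and 339.8 (0.58, SE 0.0959, adjusted p = 0.00284). RefSeq promoter sequence, from 250 bases before to 50 after the start, was at hand for 31 of the 38 members, and 4 held the element (12.9%), the other two being Btg2 and Maff, which did not pass. Of 12091 tested genes with a sequence 409 held it (3.38%), as did 4 of 109 genes that were higher (3.67%) and 0 of 51 that were lower. The CArG box bound by serum response factor was in 2 of the 31 members (Egr2 and Dusp5, 6.45%) and in 1.63% of the tested genes. Also searched were a sterol regulatory element, in 0 of 15 cholesterol enzymes with a sequence (0.0744% of tested genes), and an ER stress element, in 0 of the 31 members (0.165%). These are matches of letters, and no binding was measured.

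Cholesterol biosynthesis genes code for the chain of enzymes from acetyl-CoA through mevalonate and lanosterol to cholesterol, which developing brain makes for itself. All 20 members had a positive difference, with a median of 0.16, and 4 rose (20%, against 0.889% of all genes), 0 fell and 16 did not pass. Cyp51, the lanosterol demethylase (ENSMUSG00000001467, chromosome 5 from 4081145 to 4104746), had values of 2166, 2323 and 2368 with lithium, 1685, 1876 and 2294 with fluoxetine and 2278, 2486 and 2586 with vehicle (lowest, median, highest). Lithium libraries were tightly grouped and overlapped the upper part of the fluoxetine group, and Cyp51 rose by 0.27 (SE 0.0437, limma adjusted p = 0.00284), a fold of 1.2. Sqle, squalene epoxidase, rose by 0.19 (adjusted p = 0.0469) and Dhcr7, which makes cholesterol from its last precursor, by 0.24 (adjusted p = 0.0474). The WT vehicle mean was nearer to the lithium mean than to the fluoxetine mean in 20 of 20 members.

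Among 20 genes of sterol sensing and transport 1 rose (5%, against 0.889% of all genes), Insig1 (0.22, adjusted p = 0.0389). Insig1 holds the SREBP activators back in the endoplasmic reticulum when sterols are plentiful. Srebf2 (0.11, adjusted p = 0.256), the pathway's activator, did not pass. Insig1 did not pass in 17 of 34 alternative settings, 11 of them with 1 library left out, and the count for its list was 0 with the endothelial and mural level in the fit and 0 at no more than 35 M reads. Without WT lithium female 1, 13 cholesterol enzymes rose, and 938 of 16639 genes tested did. Without WT lithium females 3 and 4 the count of enzymes was 1, and leaving out any 1 library gave 1 to 13. With the endothelial and mural level as a covariate 1 rose, and with the astrocyte level 4.

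Genes induced by low oxygen or low glucose supply included Pfkfb3, which makes an allosteric activator of glycolysis and was among the 12 higher genes with the smallest p. Its values were 1045, 1191 and 1322 with lithium and 729, 845 and 959 with fluoxetine, with no overlap (0.47, SE 0.0587, limma adjusted p = 0.000394). WT vehicle stood at 885 ± 105 (SD, n = 10), near the fluoxetine group at 849 ± 76.6 (SD, n = 10). P4ha1, a collagen prolyl hydroxylase subunit, had 1391, 1466 and 1716 with lithium, 1139, 1257 and 1379.7 with fluoxetine and 926, 1234 and 1409 with vehicle, and the drug groups did not overlap (0.27, adjusted p = 0.00673). Adm, the vasodilator peptide adrenomedullin, rose by 0.43 (adjusted p = 0.0303) but had its highest mean, 80.0, with vehicle. Of 23 members 3 rose (13.04%, against 0.889% of all genes), 0 fell and 20 did not pass, and the median was 0.10. Slc2a1, the glucose transporter of the blood-brain barrier, had 3004, 4226 and 5115 with lithium and 2659, 3179.5 and 4121 with fluoxetine and did not pass (0.35, adjusted p = 0.0839). The count was 8 without WT lithium female 1, where 938 of 16639 genes tested were higher. It was 1 with the endothelial and mural level or the astrocyte level as a covariate.

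**Figure D3:**
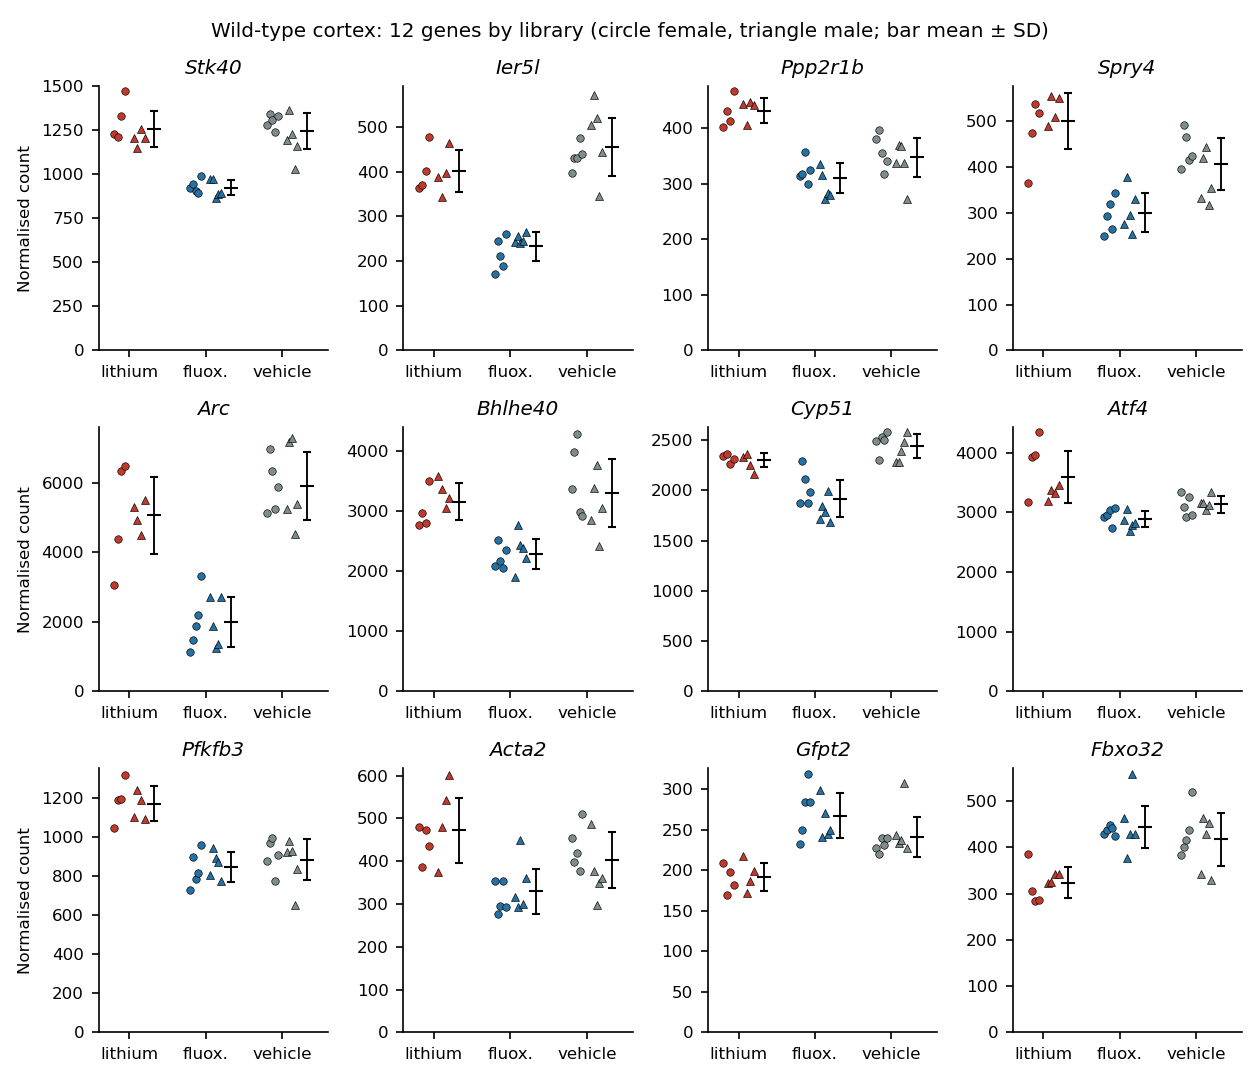
Normalised counts (y axis, from 0) of 12 genes in each WT library by treatment (x axis); circles are females, triangles males, and bars mean ± SD. Lithium libraries lie above all fluoxetine libraries for Stk40, Ier5l, Ppp2r1b, Bhlhe40, Atf4 and Pfkfb3 and below all of them for Gfpt2, and vehicle is near lithium for Arc and Cyp51 and near fluoxetine for Pfkfb3.

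The integrated stress response slows translation and raises Atf4, which turns on genes of amino acid supply. Atf4 had values of 3168, 3412 and 4345 with lithium and 2688, 2894 and 3078 with fluoxetine, with no overlap (0.31, SE 0.049, limma adjusted p = 0.00247), and WT vehicle between them at 3136 ± 145 (SD, n = 10). Sesn2, an inhibitor of mTORC1 that Atf4 and p53 induce, rose by 0.31 (adjusted p = 0.0101). The other 23 of 25 members did not pass. Among them, and named after their values were seen, were Asns (0.07), which makes asparagine, and Slc7a5 (0.05), an amino acid transporter. The 2 that rose (8%, against 0.889% of all genes) became 6, with 1 lower, without WT lithium female 1, where 938 of 16639 genes tested were higher. They were 0 with the endothelial and mural level in the fit, and with the astrocyte level, or without WT lithium females 3 and 4, Atf4 passed and Sesn2 did not. Of 26 chaperones of the endoplasmic reticulum 0 passed (median 0.01).

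Of 21 clock genes 2 rose (9.52%, against 0.889% of all genes) and 1 fell (4.76%, against 0.480% of all genes). Per1, a repressor that cyclic AMP and glucocorticoids also induce, had 2403, 2911 and 3387 with lithium and 1845, 2152 and 2404 with fluoxetine, overlapping in range (0.45, SE 0.0569, limma adjusted p = 0.000394). The WT vehicle mean of Per1 was 3022, above the lithium mean of 2904. Bhlhe40, another inducible repressor, rose without overlap by 0.47 (adjusted p = 0.000806). Per3 fell, from 1306, 1475 and 1524 with fluoxetine to 1118, 1228 and 1412 with lithium (-0.24, adjusted p = 0.0107), and its vehicle mean of 1196 lay near lithium. Per3 did not pass with the endothelial and mural level or the astrocyte level in the fit, or without WT lithium females 3 and 4. The other 18 members did not pass, Clock (-0.05) among them. Of 28 glucocorticoid-responsive genes 3 rose (10.7%, against 0.889% of all genes), Per1, Dusp1 and Nfkbia (0.37, adjusted p = 0.0349), and Per1 and Dusp1 are also on the immediate early list. Fkbp5, a defining target of the receptor, had means of 1286 with lithium, 1151 with fluoxetine and 641 with vehicle, so that the drugs (0.16, adjusted p = 0.489) were nearer to each other than either was to vehicle. Zbtb16 (1346, 1297 and 706) and Plin4 (35.2, 35.6 and 11.1) had the same pattern, and these 3 were named after their values were seen.

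Genes next to the known targets of either drug did not pass. Only 1.37% of all genes tested did, so that counts of 0 in lists this short are near that share. Of 9 genes of glycogen synthase kinase 3 and the inositol phosphatases 0 passed, with Impa1, inositol monophosphatase, at 1827, 1936 and 2151 with lithium and 1733, 1846 and 1970.5 with fluoxetine (0.10, 95% confidence interval 0.03 to 0.17, limma adjusted p = 0.161) and Gsk3b at -0.08 (interval -0.18 to 0.01). Of 24 genes of Wnt signalling 0 passed, and Ctnnb1, beta-catenin, had 14561, 15326 and 17004 and 16216, 17161 and 18704 (-0.14, adjusted p = 0.0668), while in HT it fell (-0.27, adjusted p = 0.000184). Slc5a3, the inositol transporter induced by osmotic stress, stood at 0.17 (adjusted p = 0.13), and 0 of its list of 19 passed. Of 29 serotonin and monoamine genes 0 passed. Closest was the receptor Htr2a, with 1361, 1573 and 1781 against 1529.8, 1911 and 2157 (-0.27, adjusted p = 0.0531), and next the adrenergic receptor Adra2c (0.41, adjusted p = 0.0899). Without WT lithium female 1 the counts were 2 higher and 0 lower of 9, and 1 and 2 of 24. For the lists of 19 and 29 they were 1 and 2, and 4 and 3. In that fit 938 of 16639 genes were higher and 768 lower. The 4 counts of 0 thus rest on that library too, as does the count over all genes.

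A few single members of other lists passed. Vgf, a secreted peptide precursor induced by neurotrophins, rose by 0.53 (3307, 5113 and 6612 with lithium, 2598, 3499 and 4716 with fluoxetine, limma adjusted p = 0.0277). Chrm4, an inhibitory muscarinic receptor, rose by 0.37 (adjusted p = 0.0271), Neu1, the lysosomal sialidase, by 0.23 (adjusted p = 0.0299). Igf1r, an insulin-like growth factor receptor, fell by 0.23 on the log2 scale (adjusted p = 0.0271) and Ccna2, cyclin A2, by 0.58 (adjusted p = 0.046). Each of these 5 alone passed in its list, of 11, 15, 35, 26 and 30 members. The shares were 9.09%, 6.67%, 2.86%, 3.85% and 3.33%, against 0.889% of all genes higher and 0.480% lower. Ccna2 did not pass in 21 of 33 alternative settings, most of them with 1 library left out. Vgf and Igf1r did not in 13 of 34 each, nor Chrm4 in 11 of 34. The endothelial, astrocyte and depth settings were among those of Ccna2, Vgf, Igf1r and Chrm4. In the list of Neu1, 0 genes were higher under these settings, and 0 to 7 with 1 library left out. Nuclear genes of oxidative phosphorylation had a positive difference in 70 of 73 members (median 0.12) and cytosolic ribosomal protein genes in 65 of 77 (median 0.10), with 0 passed in either list. By sex, the medians were 0.26 in females and -0.02 in males for oxidative phosphorylation, and 0.26 and -0.07 for ribosomal proteins, so that the positive shift was in females, and the difference between sexes was not tested over these lists. Without WT lithium female 1, 46 and 14 rose, and 938 of 16639 genes tested did. For mitochondrially encoded genes 0 of 15 passed, and 0 of 39 glutamate receptor and scaffold genes, 0 of 39 potassium channels and 0 of 21 genes of inhibitory synapses.

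**Figure D4:**
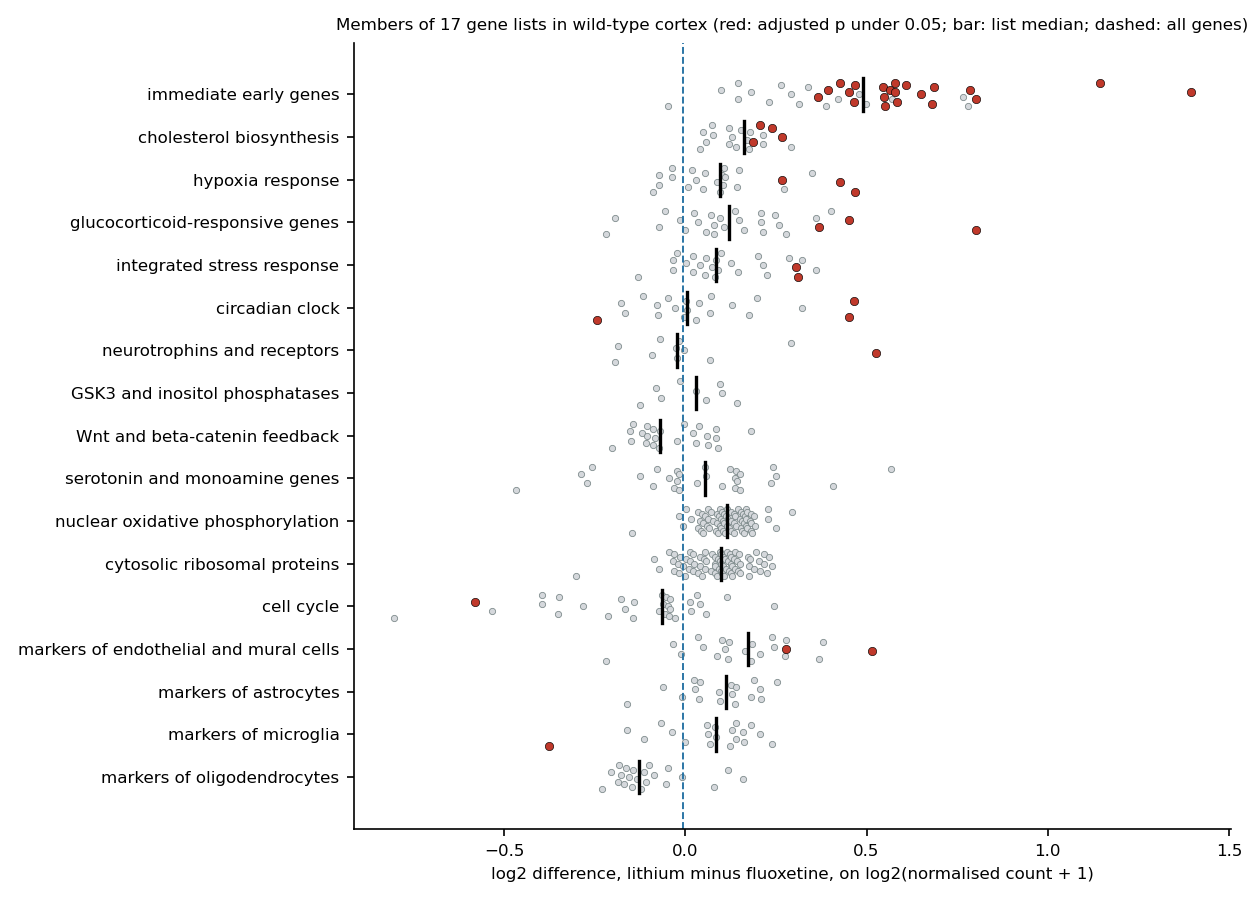
Log2 difference, lithium minus fluoxetine, in WT (x axis) of every tested member of 17 gene lists (y axis); red points passed, grey points did not, bars are list medians and the dashed line is the median of all genes. Immediate early genes are shifted furthest, with a median of 0.49, and cholesterol enzymes lie wholly right of 0.

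Lower with lithium, Fbxo32 had the smallest p. It codes for atrogin-1, a ubiquitin ligase subunit best known from muscle wasting (ENSMUSG00000022358, chromosome 15 from 58175879 to 58214932). Its values were 284, 324 and 385 with lithium, 377, 434 and 558 with fluoxetine and 329, 423 and 519 with vehicle, and the drug groups overlapped by 1 library on each side (-0.45, SE 0.0694, limma adjusted p = 0.00185). Gfpt2, which feeds glucose into the hexosamine pathway (ENSMUSG00000020363, chromosome 11 from 49794178 to 49838613), had 169, 193 and 218 with lithium and 233, 260.4 and 319 with fluoxetine, with no overlap (-0.47, SE 0.073, adjusted p = 0.00191), and vehicle stood between them at 241 ± 24.6 (SD, n = 10). Pcdh10, a protocadherin of neuronal adhesion, had large counts (5922, 7610.2 and 7904 with lithium, 8128, 8776 and 9348 with fluoxetine). Its groups did not overlap although the difference was small (-0.27, adjusted p = 0.00214). Prtg, an immunoglobulin-like receptor of early neural tissue (-0.58), the transcription factor Klf7 (-0.24) and the zinc finger gene Zfp39 (-0.27) also did not overlap.

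Zc3h6, a zinc finger gene (-0.54), Gpcpd1, a glycerophosphocholine phosphodiesterase (-0.24), and Fem1c, a substrate receptor of a ubiquitin ligase (-0.29), fell as well, with limma adjusted p of 0.00214, 0.00905 and 0.0112. A pair of genes of microglia and other leukocytes fell too, P2ry13, an ADP receptor (216, 267 and 314 with lithium, 301, 338 and 385 with fluoxetine, -0.38, adjusted p = 0.0101), and Apbb1ip, which links Rap1 to integrins (-0.46, adjusted p = 0.00556). P2ry13 alone of 20 microglia markers passed (5%, against 0.480% of all genes lower), and 14 of the 20 had a positive difference (median 0.08). Gpcpd1 and Fem1c did not pass with the endothelial and mural level or the astrocyte level, or without WT lithium females 3 and 4. Zc3h6 and Apbb1ip did not pass with the endothelial and mural level, nor P2ry13 without WT lithium females 3 and 4.

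Markers of other cell types were read as a check on tissue content, and in bulk RNA fewer cells of a type and less RNA per cell cannot be told apart. Of 17 library measures, 1 differed between the drugs, the level of 22 endothelial and mural markers, which was 0.17 higher with lithium on the log2 scale (exact permutation test within sex, two-sided, p = 0.00139, adjusted p = 0.0236 over 17). Summed normalised counts of the list were 20633 to 25629 with lithium and 18637 to 21939 with fluoxetine, and WT vehicle spread from 18257 to 26217. The measure no longer passed without WT lithium female 3, male 3 or male 4 or WT fluoxetine female 1 or female 5. Of the 22 markers 0 were at 0 in any of the 18 libraries. Acta2, smooth muscle actin, rose by 0.52 (375, 477 and 601 with lithium, 276, 308 and 449 with fluoxetine, limma adjusted p = 0.00905) and Slco1c1, a thyroid hormone transporter of the barrier, by 0.28 (adjusted p = 0.0356), which did not pass in 16 of 34 alternative settings. The 2 that rose were 9.09% of the list, against 0.889% of all genes. The other 20 did not pass, 19 of 22 were positive and the median was 0.17. Cldn5 (0.12) and Pecam1 (0.10), which define endothelium, were among those that did not pass.

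The astrocyte level was 0.09 higher (exact permutation p = 0.0366, adjusted p = 0.207), with 15 of 18 markers positive and 0 passed, and recovered reads were 30.0 ± 5.4 M against 26.0 ± 1.70 M (SD, n = 8 and 10, exact permutation p = 0.0328, adjusted p = 0.207). Blood genes were positive in 7 of 7, with Hba-a2, a haemoglobin chain, at 1484, 3697 and 5725 with lithium and 1470.1, 2468 and 3815 with fluoxetine, and 0 passed. Oligodendrocyte markers were positive in 3 of 22 (median -0.13), with 0 passed, and the median was 0.06 in females and -0.26 in males. Of the marker levels that of olfactory bulb spread most, from -0.66 to 1.29 with lithium and -2.64 to 1.82 with fluoxetine (exact permutation p = 0.907, adjusted p = 0.937). The median difference of its markers was -0.20 in females and 0.47 in males. With this level in the fit, a planned setting, 622 genes passed (374 higher and 248 lower). With the endothelial and mural level of each library in the fit 23 genes passed in all (21 higher and 2 lower), and with the astrocyte level 62 (52 and 10), settings chosen after the data were seen. Stk40, Ier5l, Ppp2r1b, Spry4, Pfkfb3, Per1, Ier5, Efnb1, Ackr3, Ccnd2, Gfpt2, Cyp51 and Bhlhe40 passed under both, as under every other setting tried.

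HT libraries gave the same contrast without sharing a library with WT. With no litter in the labels, WT and HT pups may have shared dams, so that HT is not shown to be an independent repeat. In HT, 1226 of 16744 genes passed (7.32%), 647 higher (3.86%) and 579 lower (3.46%), and the count was 772 without HT fluoxetine male 1, 441 with the endothelial and mural level in the fit and 143 with the astrocyte level. Of the 228 genes of WT, 214 had the same sign in HT (93.9%, against 59.5% of 16578 genes tested in both), 141 of the 148 higher and 73 of the 80 lower. Past the threshold in HT with the same sign were 114 (84 higher and 30 lower), which is 50% of the WT list and 9.30% of the HT list. Fermt2, an integrin activator, was the 1 gene that passed in opposite directions (WT 0.16, HT -0.15, limma adjusted p = 0.046 and 0.0419). Over all genes the WT and HT differences had a Pearson r of 0.26 and a Spearman rho of 0.27, a description over genes that share libraries.

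Stk40 (HT 0.37, limma adjusted p = 0.0018), Pfkfb3 (HT 0.53, 2.04e-05), Per1 (HT 0.59, 0.000517), Ccnd2 (HT 0.45, 4.36e-05) and Gfpt2 (HT -0.68, 5.8e-05) passed in both genotypes. Of the 24 named genes above that were picked by p, Pcdh10 (HT -0.05), Klf7 (HT -0.14), Per3 (HT -0.11) and Zfp39 (HT -0.13) did not pass in HT, with adjusted p from 0.0531 to 0.621. Immediate early genes had a median of 0.35 in HT, and 8 of 38 rose there (21.1%, against 3.86% of all genes). Arc was 4869 ± 1331 with lithium and 2936 ± 2279.8 with fluoxetine in HT (SD, n = 10 each) and did not pass (1.10, adjusted p = 0.0613). Cholesterol enzymes had a median of 0.02 with 0 of 20 passed, Cyp51 being 0.04 in HT. Endothelial and mural markers had a median of -0.13 in HT with 4 fallen, the opposite sign to WT, and Acta2 was -0.12 (adjusted p = 0.646). In HT, where 3.46% of all genes fell, 14 of 22 oligodendrocyte, 6 of 20 microglia, 5 of 18 astrocyte and 3 of 10 oligodendrocyte precursor markers and 8 of 30 cell cycle genes did. In WT, where 0.480% fell, the counts were 0, 1, 0, 0 and 1, and the difference between genotypes was not tested over these lists.

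**Figure D5:**
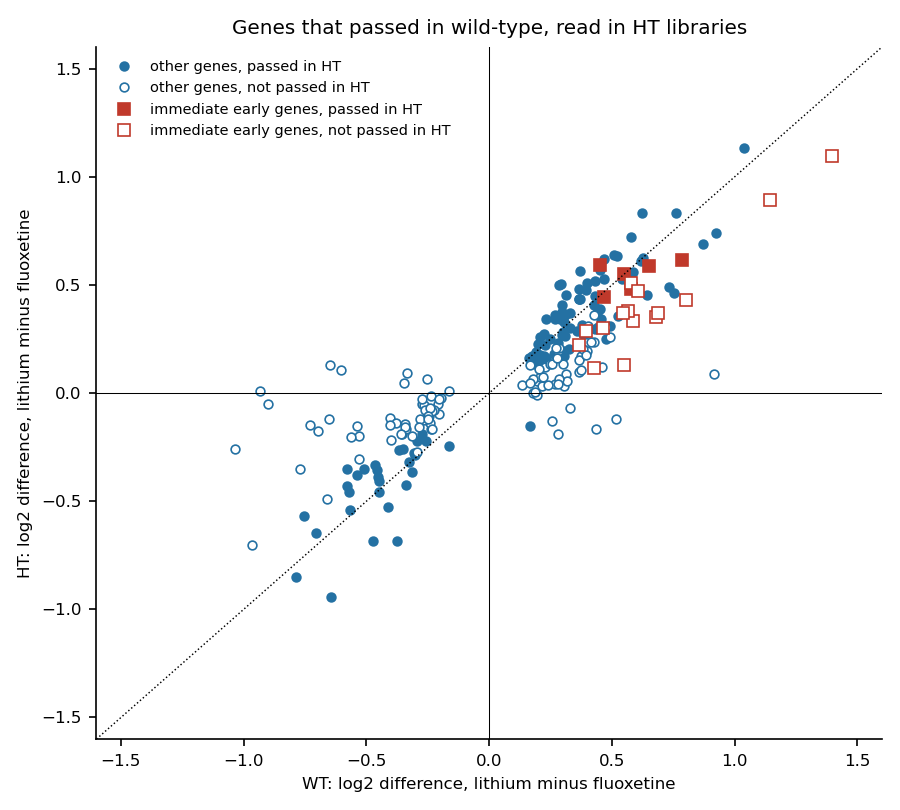
Log2 difference, lithium minus fluoxetine, in HT (y axis) against WT (x axis) for the genes that passed in WT; squares are immediate early genes, filled symbols passed in HT too, and the dotted line marks equal differences. Most points, 214 of 228, lie in the lower left and upper right parts.

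The difference between genotypes was tested directly, and 0 of 16699 genes passed by limma, against 2216 with an unadjusted p under 0.05 (13.3%). By edgeR the count was 5 and by DESeq2 118, both on the 37 libraries whose recovered reads were used. Closest by limma were Prdx6, an antioxidant enzyme (WT 0.14, HT -0.19, adjusted p of the difference 0.0518), Fermt2 (0.0647) and Gramd3 (WT 0.14, HT -0.40, 0.0653) one way, and Atxn2 (WT -0.09, HT 0.20), Moap1 (WT -0.14, HT 0.18) and Apex2 (WT -0.11, HT 0.31) the other way, each at 0.0926. Cyp51 had an adjusted p of 0.199 for the difference, Acta2 0.113 and Arc 0.83. So the larger number of genes in HT, the smaller values of cholesterol enzymes and the opposite sign of vascular markers are not shown to differ between genotypes. Without WT lithium female 1, 342 genes passed this test. Without HT fluoxetine female 3 it was 87 without HT fluoxetine female 2 it was 29, and leaving out another library gave 0 to 11.

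Females and males were compared in the same way within WT, and 0 of 16655 genes passed by limma, with 1920 at an unadjusted p under 0.05 (11.5%), 0 by edgeR and 40 by DESeq2. The smallest adjusted p was 0.207. Genes with the smallest p were Eef1b2, Rpl35a and Rpl9, which serve translation (females 0.26, 0.32 and 0.30, males -0.14, -0.21 and -0.26), and Itga4, Lrp1b and Uba6 in the other direction. Immediate early genes had a median difference of 0.51 in females and 0.49 in males, and cholesterol enzymes of 0.16 and 0.13. The count was 726 without WT lithium female 1, and leaving out another library gave 0.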

How the data were processed

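RNA was sequenced from stranded mRNA libraries of prefrontal cortex. Per the submitters' processing notes, the authors worked on build GRCm38 with DESeq2 1.19.11 in R 3.6.0 and with Salmon 0.11.2. The deposited table holds a normalised signal for 18088 genes, 18077 with a symbol, in 58 libraries. Its values come in steps, and in all 58 libraries 100% of the values were whole multiples of the step within 0.01. Recovered reads of 54 libraries, all 18 WT drug libraries among them, were open to the count tests. Those of 4 HT libraries were not used in them.

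Genes with a mean of at least 10 were tested on log2(value + 1) with limma 3.58.1 (trend, R 4.3.3) in 4 groups of drug by sex, averaged over the sexes, with Benjamini-Hochberg adjustment. The HT contrast used its own 20 libraries, and the difference between genotypes 38. The fit was also run on simulated counts with known differences, drawn independently and with the same relative spread for every gene. The simulated libraries had no variation shared across genes, so that run cannot show how the fit handles such variation in these libraries. edgeR 4.0.16 and DESeq2 1.42.0 on recovered reads, other filters, pseudocounts, scalings, covariates and left-out libraries were alternatives. Covariates for endothelial and astrocyte levels and the depth limit were added after the data were seen.

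The genes named are the 12 higher and 12 lower of smallest p that passed and had like signs in females and males, up to 4 of each list with the smallest p, 3 each way for each test of a difference, and Kmt5b. A few of these are left out of the text. Others are said to be chosen after their values were seen. The groups and gene lists were chosen with earlier results of these data known. Depth limits low genes most, since 1 read was worth 0.75 to 1.22 normalised counts in the 18 libraries.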

Additional observations from a re-analysis of the deposited data

Results flagged for a closer look

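Of 110 groups of values examined, 9 held 1 library far from the others by Dixon's criterion, and chance flags about 1 in 20 groups. Spry4 was 365.4 in WT lithium female 1, against 474.2 to 554.9 in the other lithium libraries. Fbxo32 was 558 in WT fluoxetine male 4, against 377.1 to 463.5 in the other fluoxetine libraries. Per3 was 1306 in WT fluoxetine female 2, against 1442 to 1524. Acta2 was 449.4 in WT fluoxetine male 3, against 275.7 to 360.9, and the astrocyte level of that library was 0.1518 on the log2 scale, against -0.1213 to -0.0038. WT fluoxetine male 5 had 30.09 M recovered reads, against 23.94 to 26.49 M. The microglia level was 0.2746 in WT lithium female 3, against -0.1403 to 0.0555. In WT fluoxetine male 2 the olfactory bulb level was -2.64, against -0.5211 to 1.825, and the striatum level was -0.2272, against -0.1168 to -0.0108.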

How the results depend on the processing

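The 228 genes of WT became 702 in a fit on all 58 libraries, 622 with olfactory bulb marker level in the model, 500 by DESeq2, 122 with the replicate number as a block (89 higher and 33 lower), 96 with the exon length slope, 62 with the astrocyte level, 41 at no more than 35 M reads and 23 with the endothelial and mural level. Leaving out 1 library gave 102 to 1706, and quantile scaling, no trend, other filters, pseudocounts, the striatum level and edgeR gave 167 to 251, of which 221 of the 251 by edgeR were shared. Replicate numbers gave little sign of pairing. The deviations of same-numbered libraries correlated at -0.251 to 0.199, above 0.1 in 1 of 8 pairs, and 2 of 8 correlated best with their own number. Whether same-numbered libraries shared a litter or batch was not tested. The 1226 genes of HT became 2293 with the olfactory bulb level, 441 with the endothelial and mural level and 143 with the astrocyte level, and 772 to 1484 without 1 library, lowest without HT fluoxetine male 1. The difference between genotypes had 0 genes, and 4 with quantile scaling, 1 at a mean of at least 100, 8 on all 58 libraries, 6 with the replicate block, 20 with the olfactory bulb level, 5 by edgeR, 118 by DESeq2 and 0 to 342 without 1 library. The sex difference had 0 genes, and 1 with the striatum level, 40 by DESeq2 and 0 to 726 without 1 library. The library measures that differed, 1 of 17, were 0 to 2 without 1 library. The cause of these changes was not tested, and fits with some libraries left out also held fewer libraries. Of the values for single genes and lists, 1358 stayed on their side of the threshold or, for counts, within 1.5 times, 138 were past it no longer, 55 counts moved and 0 reversed.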
